A study of Homo sapiens with 6 samples.

Results

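A set of 8 genes of the lung epithelium was followed here through the depletion of the RNA-binding, splicing-associated protein BCLAF1: the surfactant genes SFTPD, ABCA3 and LPCAT1, the caveolin genes CAV1 and CAV2, and the transcription factor genes FOXA1, FOXA2 and CEBPA. They were picked by symbol from the deposited count table, which holds 29122 genes, and all 8 were found in it once. These 8 genes, and the gene lists used further on, were chosen with earlier results of these data known. Their counts of called or non-overlapping genes, set beside the shares of all tested genes, are therefore a description only. RNA was sequenced from A549 cells, an established epithelial line from a human lung carcinoma. The 3 control libraries came from cells with a stable lentiviral short hairpin RNA against firefly luciferase, and the 3 BCLAF1-depleted libraries from cells with a stable lentiviral short hairpin RNA against BCLAF1. Both groups therefore carried a lentiviral hairpin and differed in its target. The series is titled as a study of MED23, a subunit of Mediator, in senescence. Whether the 3 libraries of a group stem from independent cultures is not stated in the labels, and the p-values are therefore set against library-to-library spread that could be purely technical.

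Alveoli are lined by type 2 cells, which make and secrete surfactant, and by thin type 1 cells, across which gas is exchanged. Type 2 cells load phospholipid into lamellar bodies through the transporter ABCA3, remodel phosphatidylcholine with the acyltransferase LPCAT1, and secrete collectins such as surfactant protein D (SFTPD). Type 1 cells are rich in caveolae, membrane pits built from caveolins, and CAV1 is widely used as one of their markers. The pioneer factors FOXA1 and FOXA2 and the basic leucine zipper factor CEBPA take part in the differentiation of lung epithelium.

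Levels are given as CPM, a gene's counts relative to the total of its library, scaled by TMM, which corrects library totals for composition. Fold changes are BCLAF1-depleted over control on the log2 scale, and a gene is called changed where the Benjamini-Hochberg adjusted p of edgeR's quasi-likelihood test over 15907 tested genes is under 0.05. By this rule 3 of the 8 genes were higher (CAV1, CAV2 and SFTPD) and 2 were lower (LPCAT1 and FOXA2). Of all tested genes 35.8% were called, 17.8% higher and 18.0% lower. The groups did not overlap for 6 of the 8 genes, against 51.9% of all tested genes. SFTPD passed the filter on low counts only through the BCLAF1-depleted group, with 3 of 3 depleted and 2 of 3 control libraries above its cutoff of 0.244 CPM. Without it, 4 of the other 7 genes were called. In bulk RNA, fewer cells expressing a gene and less RNA per cell cannot be told apart.

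BCLAF1 itself, the check of the labels, lay at 211, 199 and 203 CPM in the controls and at 39.0, 35.7 and 53.1 CPM in the BCLAF1-depleted libraries, a log2 fold change of -2.26 ± 0.16 (SE; edgeR adjusted p = 2.3e-05). Library totals ran from 33409158 to 43928927 counts. Fold changes moved with gene length across the whole table: by quintile of annotated exon length, the median was 0.35 for the shortest genes and -0.19 for the longest. The median over all tested genes was 0.02 with TMM, -0.21 with library totals alone, and -0.14 or -0.25 on deposited FPKM, depending on the pseudocount. These other scalings also moved the balance of calls, to 8.07% higher and 23.0% lower with library totals and to 7.08% higher and 27.5% lower on FPKM with a pseudocount of 0.1. With a smooth trend in length and GC content removed from each library, 34.1% of genes were called, and the fold changes were 1.04 for CAV1, 1.14 for CAV2, -0.85 for LPCAT1 and -0.67 for FOXA2, all still called, and 0.67 for SFTPD (adjusted p = 0.179), no longer called.

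The DNA next to the starts of 4 of these genes is shown. CAV1 and CAV2 rose together, while SFTPD and LPCAT1, a pair of type 2 cell genes, had fold changes of opposite sign. That of SFTPD rested on 8 to 19 counts a library, and its call was lost when any 1 library was left out. A link between sequence and change was not tested. Sequences are from RefSeq (build GRCh38.p14), read 5′ to 3′ on the gene's strand. A promoter entry was matched for 7 of the 8 genes, and FOXA2 had none. The windows are the 250 bases before the RefSeq start farthest upstream. GENCODE annotates SFTPD and FOXA1 from farther upstream than these starts, so both windows lie inside the annotated gene, that of SFTPD outside any annotated exon. Capitals mark matches, on either strand, to 7 motifs: AP-1 (TGANTCA), C/EBP (TTGCNNAA), forkhead (TGTTTAC) and a forkhead variant (TGTTTGC), the GC box (GGGCGG), the CCAAT box (CCAAT) and the TATA box (TATAAA). No matches overlapped one another. SFTPD is shown whole (chr10:79949106-79949355, minus strand) and LPCAT1 up to its first annotated exon (chr5:1523978-1524210, minus strand). The windows of CAV1 and CAV2 lie largely in exons that GENCODE annotates for the same gene, so only 30 bases around the GC box nearest the start are shown (CAV1 chr7:116524933-116524962 and CAV2 chr7:116499677-116499706, both plus strand).
SFTPD: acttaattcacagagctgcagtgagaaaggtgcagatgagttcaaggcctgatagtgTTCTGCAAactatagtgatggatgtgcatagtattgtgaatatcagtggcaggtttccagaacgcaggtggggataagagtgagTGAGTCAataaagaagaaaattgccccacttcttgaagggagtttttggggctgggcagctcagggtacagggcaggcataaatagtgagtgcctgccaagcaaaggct
LPCAT1: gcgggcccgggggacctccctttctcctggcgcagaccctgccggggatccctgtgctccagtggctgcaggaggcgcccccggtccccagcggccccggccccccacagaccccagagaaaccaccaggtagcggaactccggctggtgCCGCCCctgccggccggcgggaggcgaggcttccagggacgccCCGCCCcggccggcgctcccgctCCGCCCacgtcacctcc
CAV1: ccctcccagccaCCGCCCccctccagcgcc
CAV2: cgaggcgaggggGGGCGGggccgggcgcta

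The SFTPD window had a GC content of 46.8%, below the median of 57.6% over 27305 promoters of the same length. It held an AP-1 match 109 bases and a C/EBP match 193 bases before the start, and no GC box. The other 3 windows were richer in GC, at 78.8% for LPCAT1, 63.6% for CAV1 and 83.2% for CAV2, with 3, 3 and 6 GC boxes. Of all promoters 6.57% held the AP-1 letters, 9.12% the C/EBP letters, 42.2% a GC box, 33.0% a CCAAT box and 11.2% a TATA box. The forkhead letters were in 3.01% and the variant in 3.19%. Neither of them was in the windows of SFTPD, ABCA3, LPCAT1, CAV1, CAV2 or CEBPA, which says only that these letters are not there. The FOXA1 window held the forkhead variant once, 235 bases before the start, and 2 GC boxes. CEBPA held a TATA box 30 bases before the start and 2 GC boxes, and ABCA3 held 1 GC box.

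**Figure D1:**
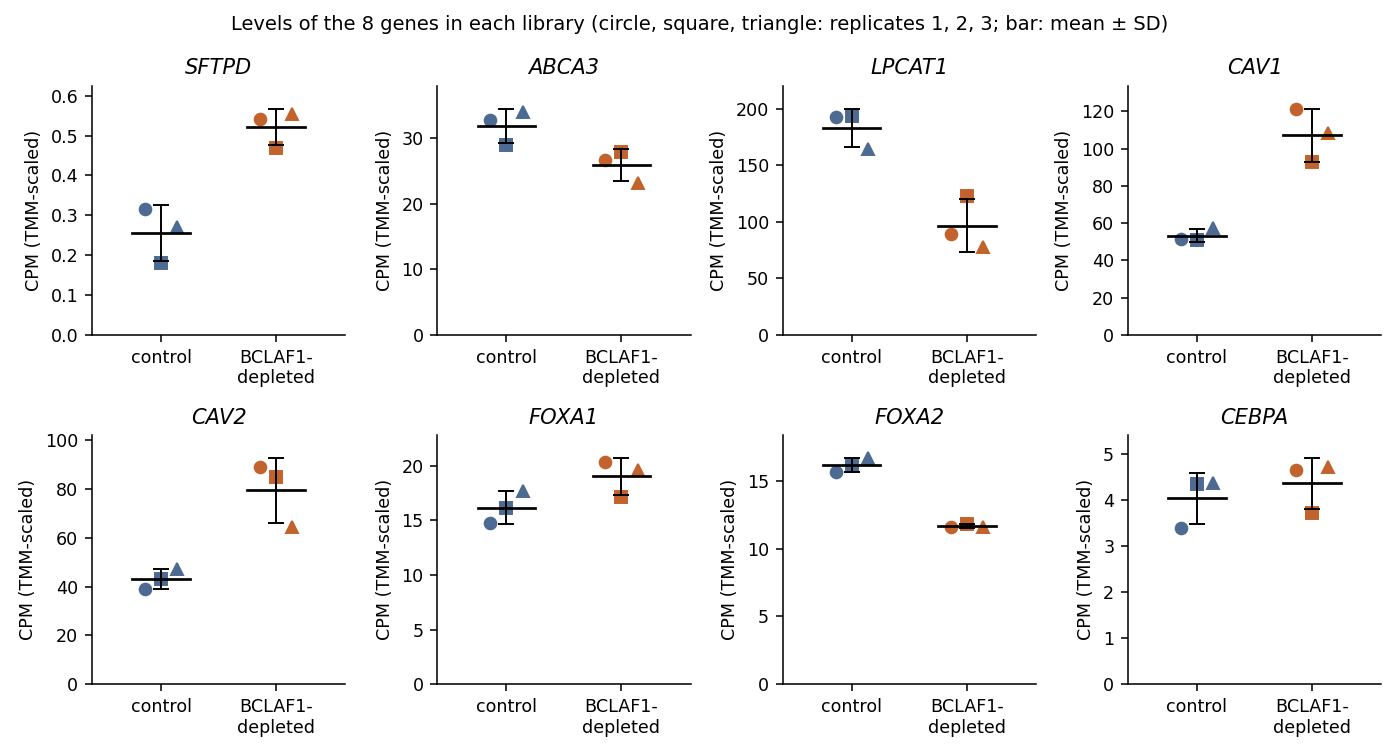
CPM of the 8 genes (y axis, TMM-scaled, starting at 0) in the 3 control and 3 BCLAF1-depleted libraries; circle, square and triangle are replicates 1, 2 and 3, and the bar is the mean ± SD. CAV1, CAV2 and SFTPD sit higher and LPCAT1, ABCA3 and FOXA2 lower in every depleted library than in every control, while FOXA1 and CEBPA overlap.

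Both caveolin genes rose. CAV1, the scaffold protein of caveolae (chr7:116524785-116561184, plus strand), was at 51.6, 50.8 and 57.4 CPM in controls 1 to 3 and at 121, 92.6 and 108 CPM in BCLAF1-depleted libraries 1 to 3. The lowest depleted library lay well above the highest control. Its mean went from 53.3 ± 3.6 to 107 ± 14 CPM (SD, n = 3 each), a log2 fold change of 1.01 ± 0.13 (SE; edgeR adjusted p = 0.000672). CAV1 was called under all 20 alternative settings, with fold changes between 0.67 and 1.11. Only 6.66% of tested genes had a higher fold change.

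CAV2, the caveolin that forms hetero-oligomers with CAV1 (chr7:116287380-116508541, plus strand), was at 38.9, 43.1 and 47.0 CPM in the controls and at 89.2, 84.9 and 64.3 CPM in the depleted libraries. The groups did not overlap, and depleted replicate 3 was the nearest to the controls. CAV2 thus had a log2 fold change of 0.89 ± 0.15 (SE; edgeR adjusted p = 0.00227). On deposited FPKM the rise was 0.54 or 0.58, depending on the pseudocount, and was not called (limma-trend adjusted p = 0.0577 and 0.0557). An antisense gene, AC002066.1, overlaps the exons of CAV2 by 76 bases, and its level was at most 0.454 CPM on average in either group.

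For the proportion of the pair, the groups did not differ beyond the spread between libraries. The log2 ratio of CAV1 to CAV2 within a library was 0.41, 0.24 and 0.29 in the controls and 0.44, 0.13 and 0.75 in the depleted libraries. The depleted values spanned the control values on both sides. The mean difference was 0.13 (exact permutation test, two-sided, p = 0.6, adjusted 0.6 over 2 ratios; 3 against 3 libraries cannot give a p below 0.1), and without depleted replicate 3 it was -0.027.

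CAV2 and CAV1 lie next to each other on chromosome 7, with 16.2 kb between them, and the genes around them were looked at after their values were seen. MET, a receptor tyrosine kinase gene 111 kb beyond CAV1, was at 126 ± 6.4 CPM in controls and 131 ± 24 CPM in depleted cells, a log2 fold change of 0.05 ± 0.15 (edgeR adjusted p = 0.795), negative with library totals, on FPKM and without depleted replicate 3 (-0.11). With the length and GC trend removed MET was at 0.30 (adjusted p = 0.148), and when depleted replicate 1 was also left out it was called higher (0.41, adjusted p = 0.0251). CAPZA2, which encodes a subunit of the actin capping protein, fell by 0.52 ± 0.14 on the log2 scale (edgeR adjusted p = 0.0191). That call was lost without control replicate 1, 2 or 3 or depleted replicate 2 (adjusted p between 0.0531 and 0.0779), and with the length and GC trend removed the fold change was -0.25 (adjusted p = 0.112). TES, a focal adhesion gene on the other side, had a log2 fold change of -0.50 ± 0.20 (edgeR adjusted p = 0.07). TES was called lower with the replicate block (-0.55, adjusted p = 0.0156), with library totals (-0.72), on FPKM (-0.78 and -0.84) and without depleted replicate 1 (-0.71, adjusted p = 0.0115), and was at -0.28 without depleted replicate 2. Of the 6 tested genes in the plot of the locus, the caveolin pair were those called higher with all libraries and TMM scaling.

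**Figure D2:**
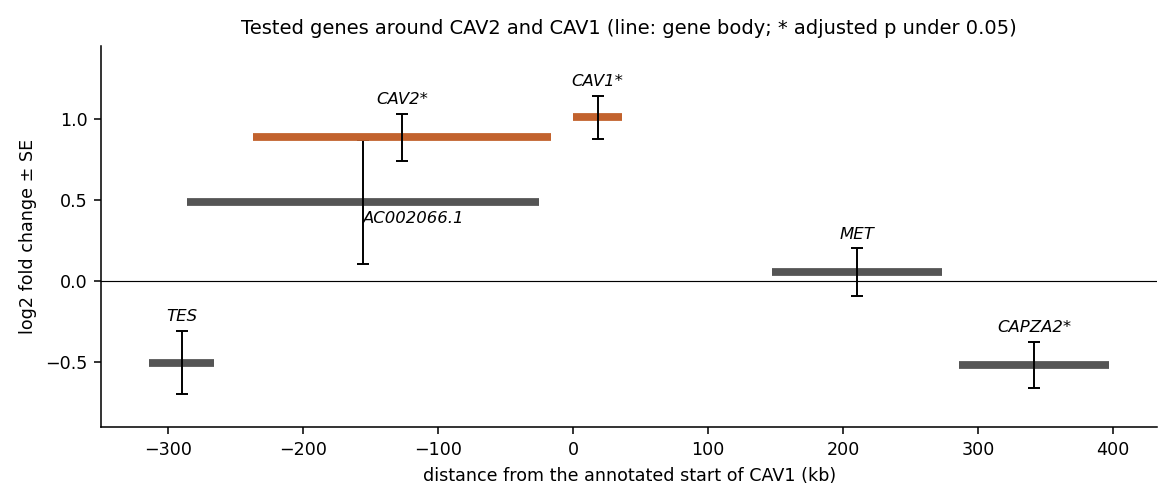
Log2 fold change ± SE (y axis) of the tested genes within 250 kb of CAV2 or CAV1, against distance from the annotated start of CAV1 in kb; horizontal lines span gene bodies, orange marks the caveolins, and an asterisk marks an adjusted p under 0.05. CAV2 (0.89) and CAV1 (1.01) are higher, MET is near 0 and CAPZA2 (-0.52) is lower.

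Other genes of caveolae were called in both directions. Of 13 tested genes on a caveolae list, 3 were higher and 2 lower, with a median log2 fold change of 0.16 beside 0.02 for all tested genes. Of all tested genes 17.8% were higher and 18.0% lower. Without CAV1 and CAV2 the list had 11 tested genes, with 1 higher and 2 lower. Apart from CAV1 and CAV2, the 1 that rose was PACSIN3 (0.52, edgeR adjusted p = 0.0268), and its paralogue PACSIN2, which bends membrane at the caveolar neck, fell by 0.56 (edgeR adjusted p = 0.00947). PACSIN2 was not called without control replicate 1 or 2 (adjusted p = 0.0584 and 0.051). PACSIN3 was not called when any 1 control library or depleted replicate 2 or 3 was left out (adjusted p between 0.0617 and 0.113), or with the length and GC trend removed (0.33, adjusted p = 0.063). FLOT1, a lipid raft scaffold, fell by 0.38 (edgeR adjusted p = 0.0361), a call lost without control replicate 1, 2 or 3 or depleted replicate 2 (adjusted p between 0.0534 and 0.137). PACSIN3, FLOT1 and the next pair of genes were named after their values were seen. CAVIN1 (listed as PTRF), the coat protein that caveolae require, was at 461, 436 and 444 CPM in controls and 504, 447 and 548 CPM in depleted libraries. The groups overlapped, with a log2 fold change of 0.16 ± 0.14 (edgeR adjusted p = 0.377) that turned negative with library totals (-0.069) and on FPKM (-0.14). CAVIN2 (listed as SDPR) was at 33.1, 30.2 and 36.8 CPM against 48.8, 32.4 and 60.7 CPM, which also overlapped (0.50 ± 0.20, adjusted p = 0.0727). SDPR was called higher with the replicate block (0.46, adjusted p = 0.0221), by DESeq2 (adjusted p = 0.0478) and without depleted replicate 2 (0.71, adjusted p = 0.0121), and was at 0.28 without depleted replicate 3. With the block, 5 genes of the list were higher.

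CAV1 and CAV2 also belong to the type 1 cell list, on which 3 of 13 tested genes were higher and 4 lower (median 0.25). Without this pair 1 of 11 was higher and 4 lower, beside 17.8% and 18.0% of all tested genes. SEMA3E, a secreted guidance protein, rose by 1.12 ± 0.17 (edgeR adjusted p = 0.00138) and its relative SEMA3B fell by 0.89 ± 0.14 (edgeR adjusted p = 0.0014). The other 3 that fell were COL4A4 (-0.75), VEGFA (-0.46) and RTKN2 (-0.73). VEGFA and RTKN2 lost their calls with the length and GC trend removed (adjusted p = 0.07 and 0.0604). VEGFA also lost it when any 1 control library or depleted replicate 2 was left out (adjusted p between 0.0504 and 0.0836), and RTKN2 without control replicate 2 or 3 or depleted replicate 2 (adjusted p between 0.0574 and 0.0764). Of the defining type 1 markers, AQP5 had at most 3 counts, HOPX at most 2 and PDPN at most 4 in any library. AGER, the most used of them, was detected at 3.28, 2.999 and 2.93 CPM in controls and 3.08, 4.28 and 6.41 CPM in depleted libraries. Its groups overlapped, with a log2 fold change of 0.58 ± 0.25 (edgeR adjusted p = 0.0896) that was 0.78 and called without depleted replicate 1 (adjusted p = 0.00976) and 0.26 without depleted replicate 3. The summed level of the list was 555 to 604 CPM in controls and 636 to 716 CPM in depleted libraries. That sum includes CAV1, at 50.8 to 57.4 CPM in controls and 92.6 to 121 CPM in depleted libraries. It also includes CAV2, at 38.9 to 47.0 CPM and 64.3 to 89.2 CPM. The higher sum is therefore no separate evidence of a rise in the rest of the list.

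Among the surfactant genes, LPCAT1 fell and SFTPD was higher at a very low level. LPCAT1, the lysophosphatidylcholine acyltransferase of surfactant lipid remodelling (chr5:1456480-1523977, minus strand), was at 192, 194 and 164 CPM in the controls and at 89.4, 123 and 77.8 CPM in the depleted libraries. Every depleted library lay below every control, with depleted replicate 2 the highest of the 3. For LPCAT1 this gave a log2 fold change of -0.93 ± 0.17 (SE; edgeR adjusted p = 0.00386). LPCAT1 was called under all 20 alternative settings, with values between -1.24 and -0.79.

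ABCA3, the lamellar body lipid transporter (chr16:2275881-2340746, minus strand), was at 32.7, 28.9 and 34.0 CPM in the controls and at 26.7, 27.8 and 23.1 CPM in the depleted libraries. The groups did not overlap, but control replicate 2 and depleted replicate 2 were close. Its log2 fold change was -0.30 ± 0.12 (SE; edgeR adjusted p = 0.0822), which did not pass. On deposited FPKM it passed, at -0.47 and -0.58 (limma-trend adjusted p = 0.0407 and 0.038), scales on which the median of all genes was also lower.

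SFTPD, a secreted collectin of lung defence (chr10:79937740-79982614, minus strand), rested on 14, 8 and 13 counts in the controls and 19, 16 and 18 counts in the depleted libraries. Its levels were 0.317, 0.180 and 0.270 CPM against 0.542, 0.469 and 0.555 CPM. The scaled levels did not overlap, but the counting error was wide: the Poisson 95% interval of the 14 counts of control replicate 1 ran from 7.65 to 23.5, and that of the 16 counts of depleted replicate 2 from 9.145 to 26.0. These intervals cover counting error only. The log2 fold change was 1.02 ± 0.36 (SE; edgeR adjusted p = 0.0481). The call was lost when any 1 of the 6 libraries was left out, with fold changes from 0.82 to 1.19 and adjusted p between 0.0755 and 0.194, and it held under 5 of 19 alternatives. SFTPD has 1321 bases of annotated exon, in the shortest quintile of genes, where the median fold change was 0.35. BMS1P21, on the opposite strand, overlaps its exons by 78 bases.

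The genes that make type 2 cells recognisable were near the detection limit in both groups. SFTPA2 had at most 1 count, SFTPC at most 4, SFTPB at most 8 and LAMP3, a lamellar body protein, at most 10 counts in any library. NKX2-1, the lung lineage factor, had 6, 6 and 5 counts in controls and 5, 1 and 0 in depleted libraries. Summed by group, control against depleted, the counts were 17 and 6 for NKX2-1, 15 and 21 for LAMP3 and 3 and 13 for SFTPB. Those of SFTPC were 4 and 7, and those of SFTPA2 were 1 and 1. These few counts had no shared direction. All 5 were under the filter and were not tested. Of 11 tested genes on the type 2 cell list 2 were higher and 2 lower (median -0.12), beside 17.8% higher and 18.0% lower of all tested genes. SFTPD, 1 of the 2 higher, passed the low-count filter only through the group where it is high. Without the members of the 8-gene set, 8 genes of the list were tested, with 1 higher and 1 lower. The lower was LRRK2, a kinase of lamellar body homeostasis (-1.16 ± 0.17, edgeR adjusted p = 0.00109). Beside SFTPD, CTSH, a protease that processes surfactant protein precursors, was the other that rose (0.81, edgeR adjusted p = 0.00874; named after its value was seen). The summed level of the list was 288 to 322 CPM in controls and 193 to 248 CPM in depleted libraries, of which LPCAT1 alone made up 164 to 194 CPM and 77.8 to 123 CPM.

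On a list of 23 tested genes drawn up around the supply and transport of surfactant lipid, none rose and 4 fell (median -0.25), beside 17.8% and 18.0% of all tested genes. The list is broad: beside ABCA3 it holds other ABCA family genes, such as ABCA4 and ABCA12, and general lipid enzymes such as SCD. The list's count of higher genes went up to 5 under the alternatives, with 12 of 20 giving at least 1. SCD, the desaturase that makes monounsaturated fatty acids, was at 451, 456 and 467 CPM in controls and 250, 177 and 183 CPM in depleted libraries. These groups were far apart, with a log2 fold change of -1.17 ± 0.16 (edgeR adjusted p = 0.00079). ABCA8, a lipid transporter of the same family as ABCA3, fell by 2.39 ± 0.38 (edgeR adjusted p = 0.00194) from 0.682 to 0.127 CPM. It passed the low-count filter only through the controls, with 0 of 3 depleted libraries over the cutoff, and without it 3 genes of the list fell. LPCAT1 and CHKB, a choline kinase (-0.63, edgeR adjusted p = 0.0196), were the others. CHKB lost its call when any 1 control library, depleted replicate 2 or depleted replicate 3 was left out (adjusted p between 0.0511 and 0.079). Of the acyltransferase relatives of LPCAT1, LPCAT3 had a fold change of -0.42 (edgeR adjusted p = 0.0661) and LPCAT4 of 0.37 (edgeR adjusted p = 0.0519), neither called. LPCAT4 was called higher with DESeq2 size factors (0.38, adjusted p = 0.0495), with the length and GC trend removed (0.36, adjusted p = 0.0428) and without depleted replicate 1 (0.42, adjusted p = 0.0176), while LPCAT3 was called lower on FPKM (-0.48 and -0.68) and without depleted replicate 1 (-0.51, adjusted p = 0.0301). Among collectins, 2 genes were tested: SFTPD, which passed the filter only through the group where it is high, and COLEC11. COLEC11 was at 0.498, 0.564 and 0.499 CPM in controls and 0.941, 1.23 and 1.26 CPM in depleted libraries (1.13 ± 0.27, edgeR adjusted p = 0.0109). COLEC11 was not called without control replicate 1 (adjusted p = 0.0529).

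**Figure D3:**
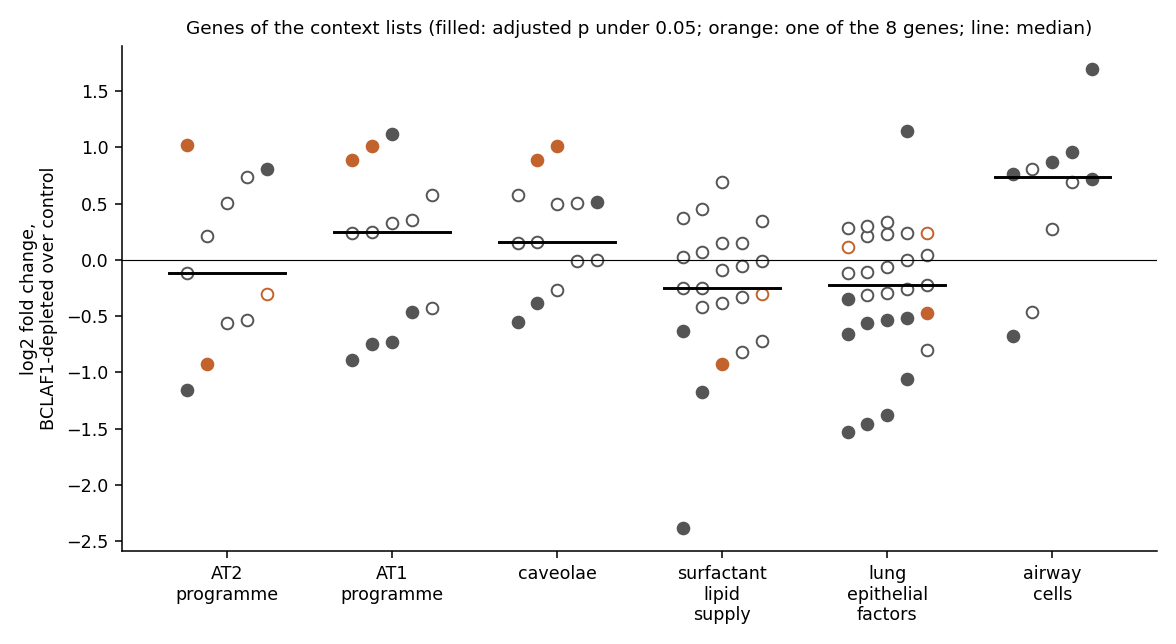
Log2 fold changes (y axis) of the tested genes on 6 lists; filled points have an adjusted p under 0.05, orange points are among the 8 genes, and lines are list medians. CAV1, CAV2 and SFTPD stand near 1 and LPCAT1 near -0.93. The lists around them hold called genes in both directions, except the surfactant lipid list, where the 4 called genes are lower. Among those 4 is ABCA8, which passed the low-count filter only through the controls.

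Of the transcription factor genes, FOXA2 fell, while FOXA1 and CEBPA were not called. FOXA2 (chr20:22581005-22585455, minus strand) was at 15.7, 16.1 and 16.7 CPM in the controls and at 11.6, 11.8 and 11.6 CPM in the depleted libraries. Both groups were tight and did not overlap. The log2 fold change was -0.47 ± 0.12 (SE; edgeR adjusted p = 0.0123). Leaving out control replicate 1, 2 or 3 gave nearly the same fold change (-0.49, -0.48 and -0.45) with adjusted p of 0.0552, 0.062 and 0.0589, and the call was lost. With those libraries left out only 18.1%, 18.1% and 19.7% of all tested genes were called.

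FOXA1 (chr14:37589984-37596059, minus strand), its paralogue and fellow pioneer factor, was at 14.7, 16.1 and 17.7 CPM in the controls and at 20.3, 17.1 and 19.6 CPM in the depleted libraries. Control replicate 3 lay above depleted replicate 2. The log2 fold change of 0.24 ± 0.13 (SE) did not pass (edgeR adjusted p = 0.174), and on FPKM it was -0.048 and -0.057, above the medians of all genes on those scales. Exons of TTC6 on the opposite strand overlap FOXA1 by 16 bases.

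Within a library, the log2 ratio of FOXA1 to FOXA2 was -0.09, 0.00 and 0.08 in the controls and 0.81, 0.53 and 0.75 in the depleted libraries. The paralogues were thus at near-equal CPM in control cells, and FOXA1 was the higher in every depleted library. CPM does not account for gene length, and on deposited FPKM FOXA2 was the higher in all 3 control libraries. The mean difference was 0.70 (exact permutation test, two-sided, p = 0.1, which is the smallest that 3 against 3 libraries allow; adjusted 0.2 over 2 ratios). This ratio does not depend on how libraries are scaled.

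CEBPA (chr19:33299934-33302564, minus strand), a factor for surfactant gene expression and epithelial maturation, was at 3.39, 4.35 and 4.37 CPM in the controls and at 4.65, 3.72 and 4.72 CPM in the depleted libraries. The groups overlapped. The log2 fold change was 0.11 ± 0.18 (SE; edgeR adjusted p = 0.653), and its sign turned under 7 of 19 alternatives, among them leaving out control replicate 1 (-0.0036). An antisense gene, AC008738.3, overlaps 659 of the 2631 exonic bases of CEBPA, and without the strand setting of the counting its reads and those of CEBPA cannot be told apart.

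FOXA2 was one of 10 lung epithelial factors that fell, of 29 tested, while 1 rose (median -0.22). By the same rule 18.0% of all tested genes fell and 17.8% rose. The largest falls were in TFCP2L1, a factor of the grainyhead-related CP2 family (-1.53 ± 0.22, edgeR adjusted p = 0.00121), FOXA3, the remaining FOXA paralogue (-1.46 ± 0.30, edgeR adjusted p = 0.00567), and HNF4A, a nuclear receptor of endodermal epithelium (-1.38 ± 0.14, edgeR adjusted p = 0.000126). FOXA3 was at 1.06, 1.29 and 1.81 CPM in controls and 0.456, 0.557 and 0.493 CPM in depleted libraries. HNF4A was at 20.03, 19.5 and 21.2 CPM against 8.30, 6.66 and 8.35 CPM, so that it was more abundant in CPM than FOXA2 in controls and less abundant after depletion. None of these 3 overlapped between groups or lost its call under an alternative that tested it. The 1 that rose was DDIT3, a stress-induced C/EBP family member (1.14, edgeR adjusted p = 0.00739; named after its value was seen). The list's count of lower genes depended on the libraries: it was 3 without control replicate 2.

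Beside FOXA2, 2.36 kb away, lies the long noncoding RNA gene LINC00261, its only tested neighbour within 250 kb. LINC00261 went from 1.09 ± 0.17 to 0.512 ± 0.038 CPM (SD, n = 3 each), a log2 fold change of -1.08 ± 0.28 (edgeR adjusted p = 0.0145). It was looked at after its value was seen, and its call was lost without control replicate 2 (adjusted p = 0.0798). The 2 genes tested beside FOXA1, TTC6 and MIPOL1, were not called (-0.77 and -0.44, edgeR adjusted p = 0.165 and 0.0722). TTC6 was at -0.44 without control replicate 1 and called without control replicate 3 (-1.13, adjusted p = 0.042). MIPOL1 was called with library totals (-0.66, adjusted p = 0.0398), on FPKM and without depleted replicate 1 (-0.59, adjusted p = 0.0145), and was at -0.15 with the length and GC trend removed.

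**Figure D4:**
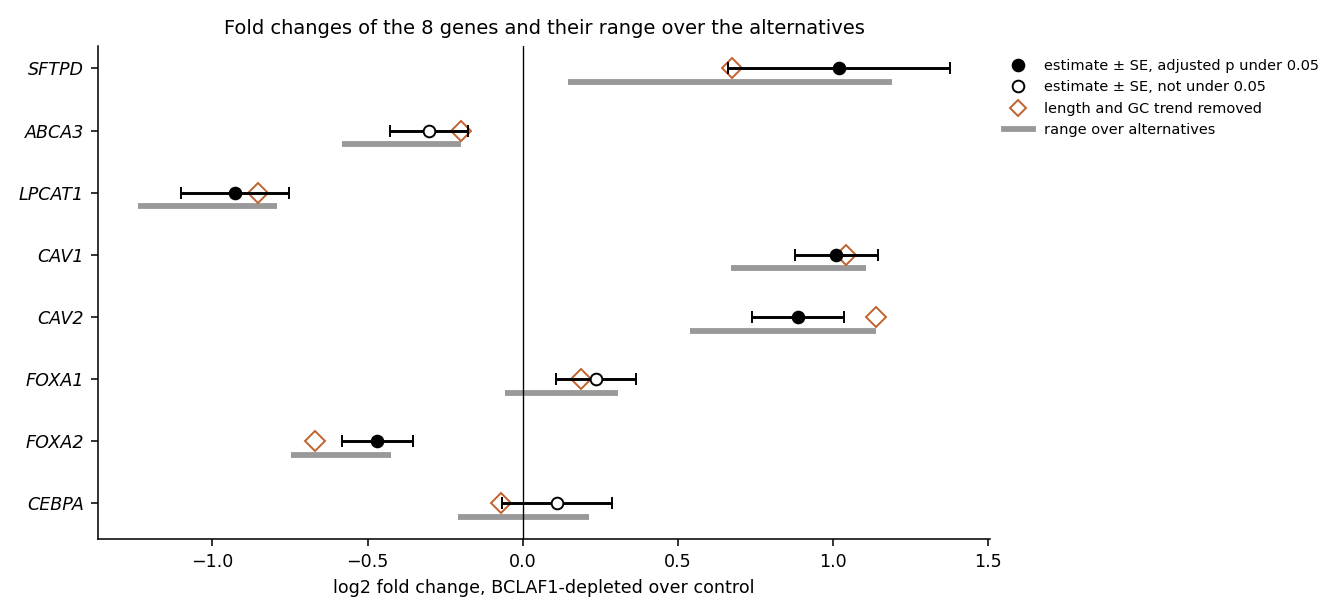
Log2 fold change of each of the 8 genes (x axis, BCLAF1-depleted over control) with its SE; filled points have an adjusted p under 0.05, diamonds have the length and GC trend removed, and grey bars span all alternatives. CAV1, CAV2, LPCAT1 and FOXA2 stay on their side of 0 throughout, SFTPD spans 0.15 to 1.19, and FOXA1 and CEBPA cross 0.

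Per transcript length, on the deposited FPKM scale, LPCAT1 was the most abundant of the 8 genes in controls at 44.7 ± 3.8 FPKM (SD, n = 3). CAV1 followed at 14.003 ± 1.04 and CAV2 at 10.03 ± 1.01 FPKM. FOXA2 at 5.997 ± 0.22 and FOXA1 at 5.45 ± 0.53 FPKM overlapped in their ranges, though FOXA2 was the higher within each of the 3 control libraries. ABCA3 was at 4.53 ± 0.40, CEBPA at 1.48 ± 0.21 and SFTPD at 0.197 ± 0.051 FPKM, and no other neighbours in this order overlapped. In depleted cells the order changed at the top: CAV1 had the highest mean at 23.3 ± 5.7 FPKM, then LPCAT1 at 19.4 ± 5.4 and CAV2 at 15.4 ± 4.4 FPKM, whose ranges overlapped in turn. FOXA1 at 5.28 ± 1.00 now stood above FOXA2 at 3.55 ± 0.47 FPKM without overlap, and FOXA2 overlapped ABCA3 at 3.03 ± 0.61. CEBPA was at 1.31 ± 0.26 and SFTPD at 0.323 ± 0.049 FPKM. Among all genes with an FPKM, LPCAT1 stood above 92.8% in controls and 85.9% in depleted cells, CAV1 above 79.7% and 88.0%, and SFTPD above 9.25% and 16.4%.

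**Figure D5:**
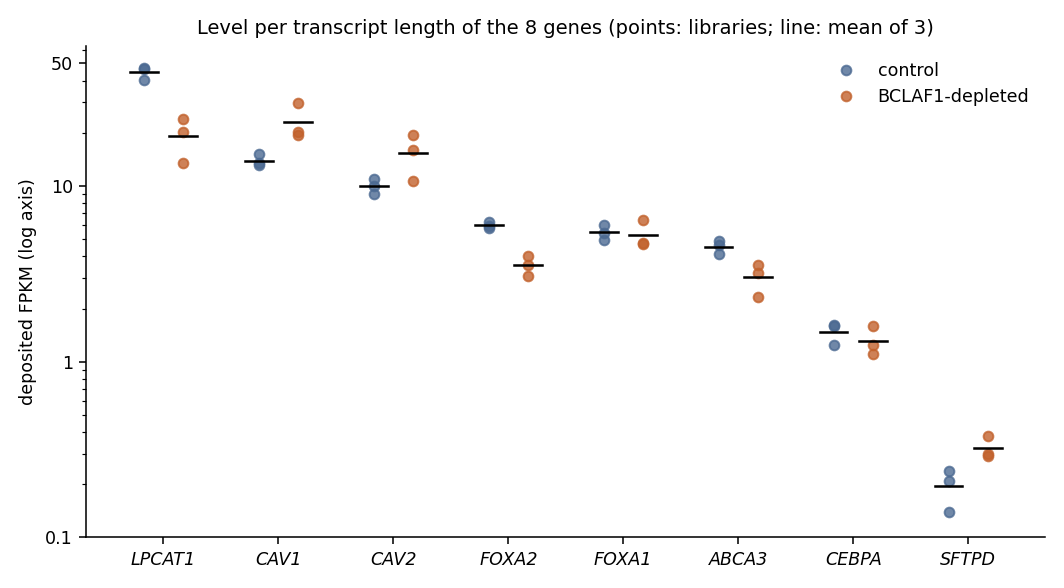
Deposited FPKM (y axis, log scale) of the 8 genes, ordered by their control mean; points are libraries and lines are means of 3. LPCAT1 is the highest gene in the controls (44.7) and CAV1 has the highest mean in the depleted libraries (23.3), where LPCAT1 lies above it in 1 of 3.

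Genes of at least 5 CPM whose centred log2 profile over the 6 libraries lay nearest to each called gene are given as a description only. Nearest to CAV1 were MYEOV (mean absolute distance 0.06), DUXAP8 (0.07) and OSBP2 (0.09). Nearest to CAV2 were C6orf48 (0.07), BLCAP (0.09) and ZNF469 (0.10), so that neither caveolin was among the 3 nearest to the other. LPCAT1 was nearest to GRK5 (0.06), HES4 (0.07) and GS1-358P8.4 (0.08). FOXA2 was nearest to RAB11FIP4 (0.02), SPC25 (0.03) and MARK4 (0.03), and SFTPD to PPL (0.12), TMEM258 (0.14) and OSBP2 (0.14).

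Markers of other cells were read beside these results, and their part in them was not tested. On an airway cell list 5 of 10 tested genes were higher and 1 lower (median 0.74), led by BPIFB1 (1.70), CCDC78 (0.96) and RSPH1 (0.86). The shares over all tested genes were 17.8% higher and 18.0% lower. BPIFB1 was not called without control replicate 1 or 3 or depleted replicate 1 or 2 (adjusted p between 0.0651 and 0.103), and RSPH1 not without control replicate 2 or 3 or depleted replicate 2 or 3 (adjusted p between 0.0592 and 0.0809). BPIFB1 passed the low-count filter only through the depleted group (2 of 3 control libraries over the cutoff) and its groups overlapped. The summed level of that list was 2406 to 2680 CPM in controls and 2552, 2898 and 6854 CPM in depleted libraries 1 to 3. Most of the last value was MUC5AC, a secreted mucin, at 6424 CPM in that library and 2011 to 2576 CPM in the other 5 (not called). General epithelial genes summed to 32810 to 34430 CPM in controls and 34710 to 42150 CPM in depleted libraries, and of 10 tested KRT19 was higher, with 2 of 3 control libraries over the filter's cutoff, and CLDN7 lower. Fibroblast genes summed to 36.1 to 40.9 CPM in controls and 33.2 to 37.98 CPM in depleted libraries, which overlapped, with COL1A1 the 1 of 7 called (-0.84). Endothelial genes summed to at most 9.52 CPM in any library, with CDH5 higher and PECAM1 lower of 3 tested, and leukocyte genes to at most 4.47 CPM, with ITGAM higher of 4 tested. KRT19 lost its call when any 1 library other than depleted replicate 1 was left out (adjusted p between 0.0944 and 0.167), and PECAM1 when any 1 of the 6 was (0.0517 to 0.164). CLDN7 lost it without control replicate 2 or 3 or depleted replicate 2 (adjusted p between 0.0609 and 0.127), and ITGAM without control replicate 1 or 2 or depleted replicate 2 (0.0526 to 0.0949).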

How the data were processed

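The 6 A549 libraries (3 control, 3 BCLAF1-depleted) were grouped by their labels. The labels' sample names write "si" while the treatment protocol describes lentiviral short hairpin RNA, and the latter was used. DNase-treated RNA was selected with oligo(dT) and made into directional libraries, per the labels. The deposited counts are whole reads per gene, not normalized. The authors also deposited FPKM values, per length and library size. Build GRCh38 and the tools bcl2fastq, TopHat2 and edgeR are named in the submitters' processing notes. Not given in the sources used here are the counting tool, annotation release and strand setting.

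The main test was edgeR 4.0.16 (R 4.3.3; quasi-likelihood, TMM, filterByExpr with a minimum count of 10 and total of 15, group as the only term). FPKM was tested with limma 3.58.1 on log2(FPKM + 1) and log2(FPKM + 0.1), a scale that understates the change of low genes. Other alternatives were DESeq2 1.42.0, limma-voom, other scalings and filters, a replicate block, a length and GC trend (mgcv 1.9.3) and each library left out. The trend without depleted replicate 1, the depleted library nearest the controls, was added after seeing the data. Positions, lengths and overlaps are from GENCODE 29 (28362 of 29122 genes matched). The edgeR step was tested on simulated data.

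The 8 genes and all lists were chosen with earlier results of these data known. Named from each list were up to 3 called genes with the largest change, and for each called member the 3 nearest profiles; all other genes were named after their values were seen.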

Additional observations from a re-analysis of the deposited data

How the results depend on the processing

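CAV1 and LPCAT1 kept their direction and call under all 20 alternatives. SFTPD lost its call with library totals (0.79), no filter (0.98), the trend removed (0.67), the trend with the replicate block (0.69), DESeq2 (1.03), log2(FPKM + 0.1) (0.52), the trend without depleted replicate 1 (0.56), and each library left out (0.82 to 1.19). ABCA3 passed only on FPKM (-0.47 and -0.58), where CAV2 did not (0.54 and 0.58) and FOXA1 turned (-0.048 and -0.057). FOXA2 lost its call without each control library (-0.49 to -0.45). CEBPA turned with library totals (-0.12), the trend (-0.069), the trend with block (-0.077), FPKM (-0.10 and -0.17), the trend without depleted replicate 1 (-0.21) and a control left out (range over libraries -0.0036 to 0.21). The CAV1 to CAV2 ratio turned without depleted replicate 3 (range over libraries left out -0.027 to 0.28). PTRF turned with library totals (-0.069) and FPKM (-0.14 and -0.14), and MET likewise (-0.19, -0.24 and -0.25) and without depleted replicate 3 (range over libraries left out -0.11 to 0.14). The count of higher genes among the 8 ran from 1 to 3, with 1 on log2(FPKM + 0.1), and it was under 3 wherever SFTPD lost its call. That of lower genes ran from 1 to 3, with 3 on log2(FPKM + 1) and 1 to 2 over single libraries left out. The cause was not tested.

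Over all alternatives the higher and lower counts ran from 1 to 2 and 2 to 4 on the type 2 list, 2 to 5 and 2 to 5 on the type 1 list, 1 to 5 and 0 to 3 for caveolae, 1 to 4 and 3 to 14 for lung factors, 0 to 5 and 3 to 9 for surfactant lipid, and 2 to 7 and 1 to 2 for airway cells. With any 1 control left out, 2938 to 3188 genes were called in all, against 5697. CEBPA and SFTPD fall out at 5 CPM. Depth limits SFTPD most, at 8 to 19 counts a library.

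With the replicate number as a block, 6007 genes were called and SFTPD was not (1.03, adjusted p = 0.0676). No other call among the 8 changed. Same-numbered libraries correlated at 0.04, 0.05 and 0.12 in their deviations from the group means, not all over 0.1, so the numbers were not taken as pairs; every library correlated best with its own number, a hint from the data and not the design.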
